A study of Mus musculus with 2 samples.

Results

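The genes examined here were the co-receptors, adaptors and IRAK kinases that work directly beside the Toll-like receptors (TLRs). They were the co-receptors *Cd14* and *Ly96*, the adaptors *Myd88*, *Tirap*, *Ticam1* and *Ticam2*, and the kinases *Irak1*, *Irak2*, *Irak3* and *Irak4*. These 10 genes were taken by name from the pathway, with earlier results of these data known, and all of their probes were read, which came to 14 of the 27228 probes and 10 of the 20651 genes that could be named on the array. RAW264.7 is an established macrophage cell line from an ascites tumour that Abelson leukemia virus raised in an adult male BALB/c mouse. To ask how IR-61, a near-infrared dye that gathers in mitochondria, changes macrophage gene expression, 1 culture received vehicle control and 1 culture 10 μM IR-61, both for 24 h in DMEM with heat-inactivated serum. The labels name no other stimulus in either culture, and the RNA of each was read on its own single-colour Agilent mouse array. With 1 array per condition there was no replicate error between cultures, so the values below are described without a test or a p-value. The cells are 1 transformed line, and nothing here was read in primary macrophages.

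TLRs recognise microbial products such as lipopolysaccharide. CD14 hands lipopolysaccharide to the complex of TLR4 and MD-2, the protein made from *Ly96*. The adaptors TIRAP and MyD88 then recruit the kinases IRAK4, IRAK1 and IRAK2, which lead to TRAF6 and NF-κB, while the adaptors TRAM and TRIF, made from *Ticam2* and *Ticam1*, lead to TBK1 and the interferon response. IRAK3, also called IRAK-M, lacks an active kinase and is known in macrophages as a brake on this signal.

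On these arrays *Cd14*, *Ticam2*, *Irak3* and *Myd88* were lower in IR-61-treated cells by 1.5-fold or more, *Ly96* stood close to the median of all genes, and *Ticam1* was the highest of the 10. The promoters that carry a match to a searched motif are shown for *Myd88* and *Irak3*, which were among the lower members, and for *Ticam1*, which was not. They come from RefSeq on assembly GRCm38.p6 and run from 250 bases before to 50 after a transcript start, 5′ to 3′ on the strand of the gene, here the minus strand for all of them. The RefSeq table held 10 windows for 7 of the members, and *Cd14*, *Ly96* and *Ticam2* were not among them. Of the 2 *Irak3* windows, the one with the match is printed, and it lies inside the gene, around an internal transcript start, while the *Myd88* and *Ticam1* windows lie at the outer start of the gene. Capitals mark the match.
Myd88, chr9:119339969-119340268: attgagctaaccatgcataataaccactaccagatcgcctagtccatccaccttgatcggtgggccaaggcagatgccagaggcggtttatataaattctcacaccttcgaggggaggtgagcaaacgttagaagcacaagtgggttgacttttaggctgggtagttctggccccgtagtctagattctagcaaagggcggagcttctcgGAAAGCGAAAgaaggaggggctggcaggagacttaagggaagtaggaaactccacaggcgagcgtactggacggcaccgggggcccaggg
Irak3, chr10:120201548-120201847: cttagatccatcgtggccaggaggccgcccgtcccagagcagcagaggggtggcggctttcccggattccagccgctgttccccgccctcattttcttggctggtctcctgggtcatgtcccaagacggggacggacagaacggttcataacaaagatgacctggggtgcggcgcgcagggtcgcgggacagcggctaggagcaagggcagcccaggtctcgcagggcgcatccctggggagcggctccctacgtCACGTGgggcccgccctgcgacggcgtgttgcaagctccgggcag
Ticam1, chr17:56276718-56277017: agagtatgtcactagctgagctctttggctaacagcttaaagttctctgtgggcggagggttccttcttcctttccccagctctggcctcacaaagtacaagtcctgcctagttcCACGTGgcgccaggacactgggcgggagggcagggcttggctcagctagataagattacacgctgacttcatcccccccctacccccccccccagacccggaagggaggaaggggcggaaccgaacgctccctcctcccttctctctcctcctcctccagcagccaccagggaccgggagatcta
In the *Myd88* window the capitals are a match to the letters GAAANNGAAA, a pairing known from elements of interferon-responsive genes, at bases 211 to 220 of 300. This motif was found on either strand in 3.44% of the 32851 windows of all genes. In the *Irak3* and *Ticam1* windows the capitals are the E-box CACGTG, at bases 256 to 261 and 116 to 121, which 7.15% of all windows held. The AP-1 letters TGANTCA, held by 7.81% of all windows, and the κB consensus, held by 4.51%, had no match in the 10 windows of the members. Each printed window held 1 match, so no motifs overlapped in it, and a match is only a run of letters.

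Both arrays lay on 1 slide and were read in 1 scan, and no spot was saturated. The IR-61 array was brighter as a whole, so log2 signals were taken relative to the 75th percentile of each array, which stood at 10.30 for vehicle and 10.79 for IR-61. A probe was taken as measured when the scanner software called it well above background, which held for 77.6% of the probes with vehicle and 81.2% with IR-61. A difference is the scaled log2 signal with IR-61 minus that with vehicle, and a gene with several probes takes its brightest one. Over the 16885 genes measured on both arrays the median difference was 0.10 with an SD of 0.44. By 2-fold or more, 1.39% of these genes were lower and 2.0% were higher with IR-61, and by 1.5-fold or more 5.67% were lower and 9.82% higher. The only measurable error was the spread between spots of 1 probe on 1 array, from 399 probes printed 10 times. It gives an SD expected of each difference, which covers noise within an array and not that between cultures. Of 10 macrophage markers 9 could be named, and all 9 were well above background on both arrays, from *Tyrobp* at a signal of 120586 with vehicle to *Spi1* at 1002. Among 18 markers of other cell types, *Cd3g*, *Epcam*, *Cdh1*, *Adipoq*, *Lep* and *Tek* did not clear the background on either array and the other 12 did. The fibroblast genes *Col1a1*, at 27148 and 58670, and *Col3a1*, at 5152 and 5697, were bright with vehicle and with IR-61. The macrophage markers themselves differed, with *Adgre1* at 1.03 and *Aif1* at 1.08 higher and *Spi1* at −0.83 on the log2 scale, and the part of this in the values below was not tested.

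All 10 genes, and all 14 of their probes, were well above background on both arrays. Their median log2 difference was −0.36, against 0.10 over all measured genes. 8 of the 10 lay below the median of all genes and 2 above it. None was lower or higher by 2-fold, and 4 were lower and 0 higher by 1.5-fold, beside 5.67% and 9.82% of all genes. These counts depend on the scaling. Without it 0 of the 10 were lower and 2 were higher by 1.5-fold, beside 1.14% of all genes lower. The median of all genes was then 0.588 on the log2 scale, itself past 1.5-fold higher, so 2 of 10 is below the share of all genes. *Cd14* passed the lower 2-fold limit under 6 of the 11 alternative ways of processing. The differences of 7 of the 10 lay more than 2 SD of the spot noise from the median of all genes, as did 36.6% of all measured genes. Before any scaling, 4 of the 10 genes and 7 of the 14 probes gave a lower signal with IR-61, beside 7.95% of all measured genes. The arrays read RNA from whole cultures, so a lower share of cells with a transcript and less of it per cell cannot be told apart.

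**Figure D1:**
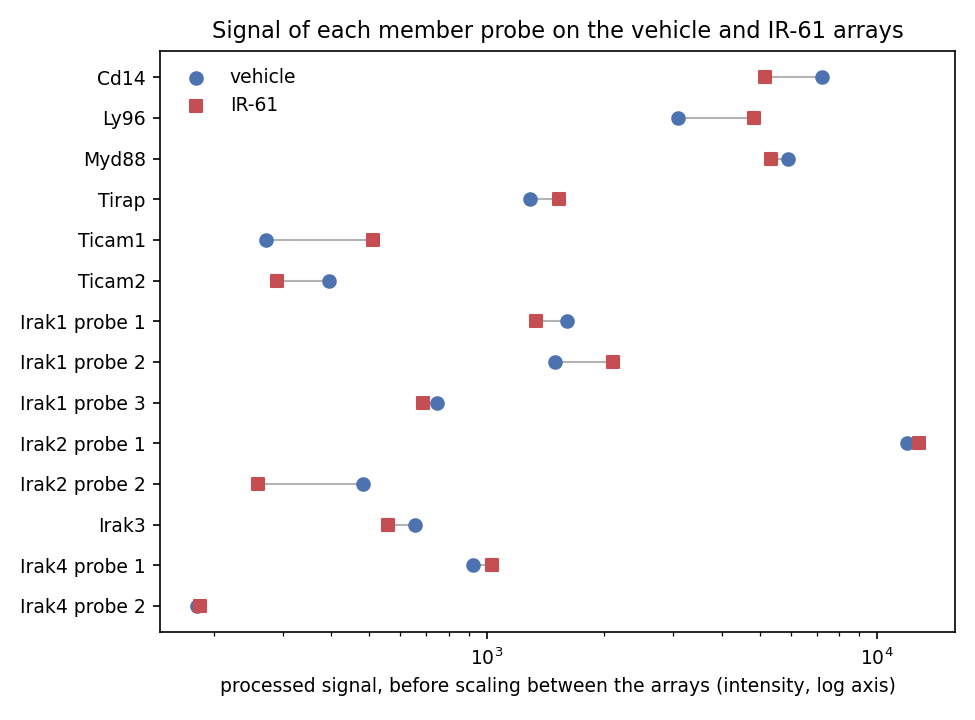
Processed signal of each member probe (intensity, log axis) before scaling, with vehicle (circles) and with IR-61 (squares), where the line joins the 2 arrays and the probes of a gene are numbered by their vehicle signal. The IR-61 square lies to the left for 7 of the 14 probes, among them *Cd14*, *Myd88*, *Ticam2* and *Irak3*, although the IR-61 array was the brighter one.

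**Figure D2:**
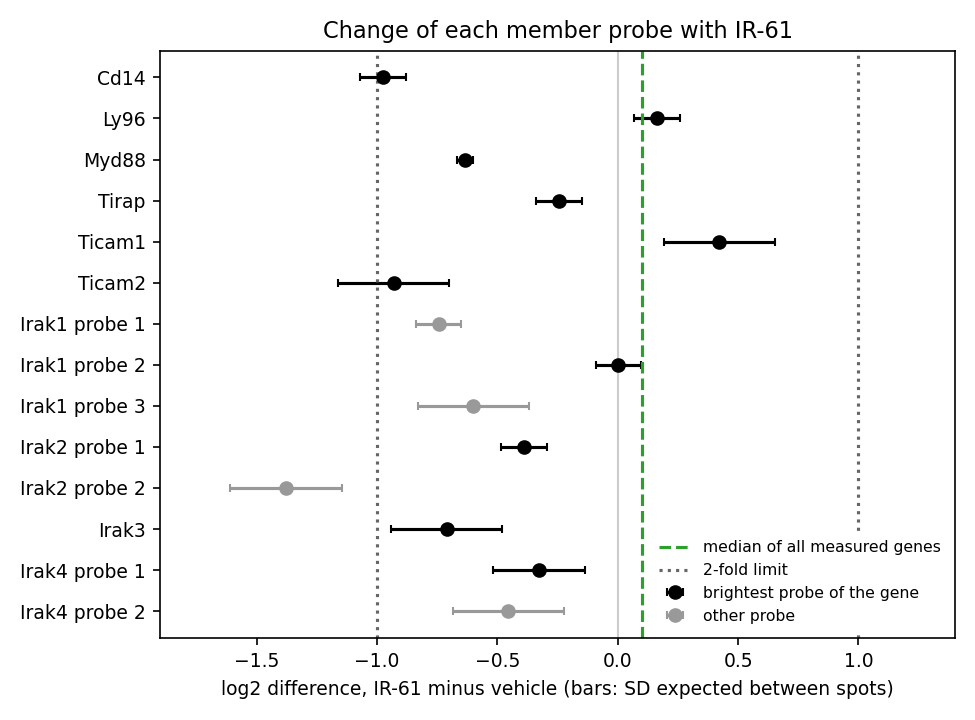
Log2 difference, IR-61 minus vehicle, of each member probe after scaling, with bars for 1 SD expected from the spread between spots. Black points are the brightest probe of a gene and grey points the others, the dashed line is the median of all measured genes (0.10) and dotted lines mark 2-fold. The dimmer *Irak2* probe lies past the lower 2-fold line and 12 of the 14 probes lie left of the dashed line.

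*Cd14*, which encodes the lipopolysaccharide co-receptor, was lower with IR-61 and *Ly96*, its partner at TLR4, was not. The *Cd14* gene lies at 36725064 to 36726815 of chromosome 18 and *Ly96* at 16688456 to 16709605 of chromosome 1, both on GRCm38.p6. The signal of *Cd14* was 7227 with vehicle and 5152 with IR-61. This was lower already before scaling, where the median over all genes was 0.59 higher with IR-61 on the log2 scale. After scaling the log2 difference was −0.98, a 1.97-fold lower signal, with an SD of 0.0946 expected from spots. Only 1.49% of the measured genes had a difference this low or lower. It stood just short of the 2-fold limit. The signal of *Ly96* was 3079 with vehicle and 4838 with IR-61. Its log2 difference was 0.16, also with an SD of 0.0946, which left it 0.06 above the median of all genes. Thus *Ly96* followed the overall brightness of the arrays and *Cd14* did not. *Tlr4*, the receptor that both serve, gave 4771 and 7426, a log2 difference of 0.15.

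Among the adaptors of the MyD88 branch, *Myd88* was the clearest case, since its probe was printed 10 times on each array. *Myd88*, at 119335934 to 119340018 of chromosome 9, encodes the adaptor that most TLRs and the interleukin-1 receptors share. The 9 vehicle spots that carried no outlier flag read from 5613 to 6104 with a median of 5957. The 8 such spots with IR-61 read from 5023 to 5542 with a median of 5336. Every IR-61 spot lay below every vehicle spot, even before scaling, also with the outlier spots put back. The mean scaled log2 signal was 2.23 ± 0.04 (SD, 9 spots) with vehicle and 1.59 ± 0.05 (SD, 8 spots) with IR-61. The log2 difference was −0.63, a 1.55-fold lower signal, and 4.73% of genes were this low or lower. These spots repeat 1 RNA sample on 1 array, so their agreement says nothing of another culture. *Tirap*, at 35184391 to 35200291 of the same chromosome, encodes the bridge from TLR2 and TLR4 to MyD88. Its signal was 1289 with vehicle and 1527 with IR-61, a log2 difference of −0.24 with an SD of 0.0946. It was lower than the median of all genes by 0.34, but without scaling its sign turned, to 0.24.

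**Figure D3:**
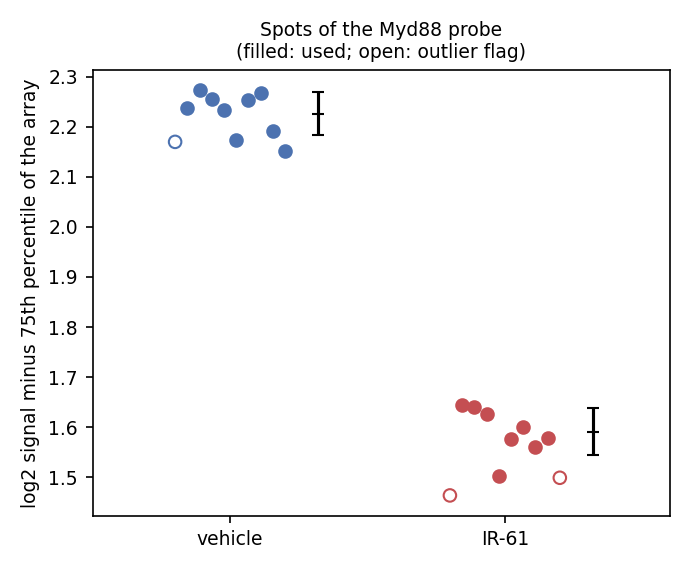
Scaled log2 signal (log2 signal minus the 75th percentile of the array) of the 10 spots of the *Myd88* probe on each array. Filled points were used, open points carried an outlier flag, and bars are the mean and SD of the used spots, 2.23 ± 0.04 for vehicle and 1.59 ± 0.05 for IR-61, which do not overlap.

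Of the adaptors of the TRIF branch, *Ticam2* was lower with IR-61 and *Ticam1* was not. *Ticam2*, at 46558231 to 46574533 of chromosome 18, encodes TRAM, which brings TRIF to TLR4. Its signal was 394 with vehicle and 290 with IR-61. The log2 difference was −0.93, a 1.91-fold lower signal with an SD of 0.231 from spots, and 1.66% of genes were this low or lower. *Ticam1*, at 56269462 to 56276767 of chromosome 17, encodes TRIF itself, which TLR3 also uses. It read 272 with vehicle and 510 with IR-61. This was a 1.34-fold higher signal, at 0.42 on the log2 scale with the same SD. Its distance from the median of all genes, 0.32, was under 2 SD, so *Ticam1* cannot be set apart from the general level at this signal. *Ticam2* lay below 0 and *Ticam1* above it under all 12 ways of processing. These ways read the same spots again, so they do not lessen the spot noise.

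Among the IRAK kinases the values turned on the probe for *Irak1* and *Irak2*, but not for *Irak4*. *Irak4*, at 94543613 to 94568317 of chromosome 15, encodes the kinase that is first recruited to MyD88. Its brighter probe read 924 with vehicle and 1032 with IR-61 and its dimmer probe 181 and 185. The log2 differences were −0.33 and −0.46, with SDs of 0.190 and 0.231. These 2 probes thus gave like values, 0.13 apart, against a median of 0.33 over the 3493 genes with 2 probes. Without scaling both were above 0, at 0.16 and 0.03.

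*Irak1*, at 74013914 to 74023921 of chromosome X, encodes the kinase that IRAK4 activates, and it was read by 3 probes. The probe A_55_P2099080, the brightest over both arrays, read 1495 with vehicle and 2100 with IR-61, a log2 difference of 0.00 with an SD of 0.0946. The probe A_55_P2153862, assigned to another RefSeq transcript of the gene (NM_001177974), read 1602 and 1341. Its signal was 1.68-fold lower, at −0.74 on the log2 scale with the same SD. The probe A_52_P149835, assigned to the same transcript as the brightest (NM_008363), read 744 and 688 and was 1.52-fold lower, at −0.60 with an SD of 0.231. So 2 of the 3 probes were lower with IR-61 under every scaling, and the probe that stands for the gene was not. A range this wide was not rare, since 192 of the 571 genes with 3 probes had one as large.

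*Irak2*, at 113638467 to 113695026 of chromosome 6, encodes a kinase that sustains the signal after IRAK1. Its brighter probe A_55_P2082979 read 11920 with vehicle and 12759 with IR-61, a log2 difference of −0.39 with an SD of 0.0946. Its dimmer probe A_55_P2082974 read 482 and 260. This was a 2.60-fold lower signal, at −1.38 with an SD of 0.231, and the only one of the 14 probes past 2-fold, beside 1.58% of all named probes. Both probes carry the same RefSeq accession (NM_172161). They differed by 0.99, more than 94.4% of the genes with 2 probes, so the size of the *Irak2* change depends on the probe. The direction was the same in both except without scaling, where the values were 0.10 and −0.89.

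*Irak3*, at 120141648 to 120202130 of chromosome 10, encodes IRAK-M and was read by 1 probe. Its signal was 653 with vehicle and 560 with IR-61. The log2 difference was −0.71, a 1.64-fold lower signal with an SD of 0.231, and 3.53% of genes were this low or lower. The brake of the pathway was thus lower together with *Cd14*, *Myd88* and *Ticam2*.

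Read against the median of all genes, most members stayed on the same side of it under the 12 ways of processing. Ways that shift every gene alike cannot move these values. Averaging over probes cannot move the own value of a gene read by a single probe. The ranges below thus rest on fewer than 12 separate readings. *Cd14* stayed between −1.09 and −0.99, *Ticam2* between −1.03 and −0.90, *Irak3* between −0.81 and −0.65 and *Myd88* between −0.75 and −0.59. *Tirap*, *Irak2* and *Irak4* also lay below the median of all genes under all 12 ways, from −0.39 to −0.12, from −0.96 to −0.33 and from −0.47 to −0.34. *Ticam1* lay above it under all 12, between 0.32 and 0.38. *Ly96* and *Irak1* crossed it, with ranges of −0.001 to 0.37 and −0.53 to 0.07.

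**Figure D4:**
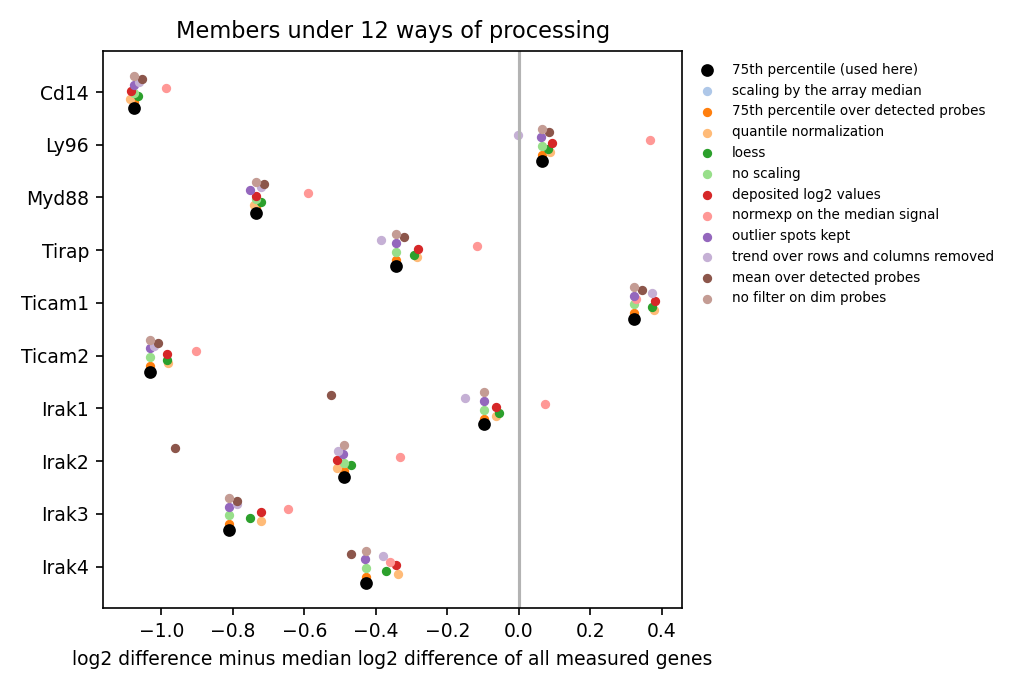
Log2 difference of each member gene minus the median of all measured genes (x axis) under 12 ways of processing, with the one used here in black. Ways that shift every gene alike cannot move these values. *Cd14*, *Ticam2*, *Irak3* and *Myd88* lie left of −0.5 in every setting, *Irak1* and *Irak2* spread most, through the mean over probes, and *Ly96* and *Irak1* lie on both sides of 0.

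The other genes of the pathway were read from lists of names. The 12 TLRs had a median log2 difference of 0.10, equal to that of all genes, and 6 lay on either side of it. The exceptions were *Tlr2*, for bacterial lipoproteins, at −2.40 (30142 with vehicle and 7982 with IR-61), and *Tlr11*, for profilin, at −2.45 (95.8 and 24.6). These 2 of 12 passed the lower 2-fold limit, beside 1.39% of all genes. *Tlr11* was dim with IR-61, with an SD of 0.387, and lay between −2.63 and −1.21 over the 12 ways of processing. *Tlr12*, at −0.77 and a signal of 31.0 and 25.4, was dim, and *Tlr13*, for bacterial ribosomal RNA, was the highest at 0.60. The 7 receptor partners, which load ligands or carry TLRs through the cell, had a median of 0.11. Their largest fall was the dim *Lbp*, at −0.72 with an SD of 0.507, and the largest rise *Ly86*, which pairs with the receptor CD180, at 0.57.

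Below the IRAK kinases, 11 of 15 genes of the MyD88 branch lay below the median of all genes, with a median log2 difference of −0.19. Of the 15, 0 were 1.5-fold lower and 2 were 1.5-fold higher, beside 5.67% and 9.82% of all genes. These counts rest on the brightest probe of each gene. *Map3k7* was at 0.32 by that probe, while its other probes gave −0.66, which is past 1.5-fold lower, and −0.04. *Traf6*, the ubiquitin ligase that IRAK1 activates, was at −0.18, and the largest fall was *Ikbkg*, the regulatory subunit of the IκB kinase, at −0.41. The largest rise was *Ube2n*, a ubiquitin-conjugating enzyme, at 0.65, but its other probe gave −0.28. *Chuk*, a catalytic subunit of the IκB kinase, was at 0.61.

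Of the 8 TRIF branch genes 6 lay below the median of all genes, and the median was −0.32. *Ikbke*, which encodes a kinase of the TBK1 family, was the only one past 2-fold, beside 1.39% of all genes lower. It read 1510 with vehicle and 1004 with IR-61. Its log2 difference was −1.08, a 2.11-fold lower signal with an SD of 0.162, and −0.59 without scaling. *Tank*, a scaffold for TBK1, was at −0.79 and its other probe at −1.16, and *Traf3*, a ubiquitin ligase below TRIF, was at −0.62. These 3 of 8 were 1.5-fold lower, beside 5.67% of all genes. *Tbk1* was at −0.26, and the largest rise was *Azi2*, another TBK1 adaptor, at 0.14.

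Of 9 negative regulators 8 were measured, and *Sarm1* did not clear the background on either array. Their median was −0.37 and 7 of 8 lay below the median of all genes. This count rests on the brightest probe of each gene. *Tollip* was counted at −0.02 from that median, with an SD of 0.0946. *Il1rl1* was counted at a log2 difference of −0.29, but its other measured probe gave 0.29. *Cyld*, *Tnfaip3*, which encodes A20, and *Tnip1*, its partner, act on ubiquitin chains and were 1.5-fold lower, at −0.82, −0.77 and −0.65. These 3 of 8 stand beside 5.67% of all genes. *Irak3* belongs with them in function, at −0.71. The largest rise was *Rnf216* at 0.40. Without scaling the medians of the members, the MyD88 branch, the TRIF branch and the negative regulators were all above 0, between 0.12 and 0.30, while that of all genes was 0.59.

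**Figure D5:**
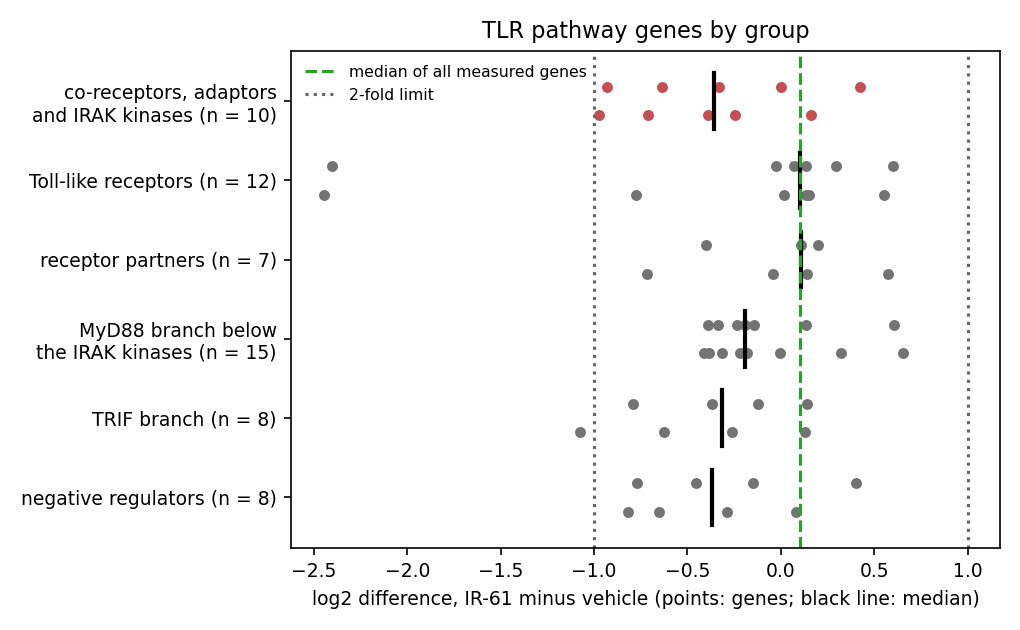
Log2 difference, IR-61 minus vehicle, of each measured gene (points) in the co-receptors, adaptors and IRAK kinases (red, n = 10) and in 5 other groups of the TLR pathway (grey), with the median of each group as a black line. The medians run from −0.37 for the negative regulators to 0.11 for the receptor partners, the dashed line is the median of all measured genes (0.10), and these scaled values all shift up by 0.49 without scaling.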

How the data were processed

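Total RNA of 1 vehicle-treated and 1 IR-61-treated RAW264.7 culture was read on Cy3 arrays of 44397 spots, 43020 of them not controls, for 39429 probes. The groups and the time are per the labels, and the dose is from the legend of the publication. The authors deposited the scanner intensity of each spot, background-subtracted and detrended by Agilent Feature Extraction, version 11.0.1.1 in the file headers and 11.0.0.1 in the submitters' processing notes. They also deposited log2 values per probe with the same quartiles on both arrays, 4.59 and 10.66, whose making is not given in the sources used here.

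Spots with an outlier flag (124 and 139) were left out, repeated spots averaged on the log2 scale, and every array set relative to its own 75th percentile. A probe with at least 0.5 of its used spots flagged well above background counted as measured. Names came from RefSeq accessions, matched without version to a GRCm38.p6 gene table, which also gave gene positions. The members, the lists and the limits were chosen with earlier results of these data known. The genes named are all members and, for each list, its largest rise, its largest fall and those past 2-fold. *Tlr4*, *Tlr12*, *Traf6*, *Map3k7*, *Chuk*, *Tank*, *Traf3*, *Tbk1*, *Tollip*, *Il1rl1*, *Tnfaip3*, *Tnip1*, *Sarm1* and the cell type markers were named after their values were seen. The design allows no test, and the number of arrays limits the precision. The SD of a difference was taken from probes printed 10 times, in bins of log2 signal under 6, 6 to 10 and over 10. The steps were tested on simulated arrays with spot noise only and planted changes larger than those of any member probe. Changes of the size seen in the members, and error between cultures, were thus not covered. The alternatives were other scalings or none, quantile normalization, loess, the deposited log2 values, normexp with an offset of 50, the mean over probes, outlier spots retained, removal of a row and column trend, no filter on dim probes and a 1.5-fold limit. Tools were R 4.3.3 (limma 3.58.1) and Python 3.11.15 (matplotlib 3.10.9, statsmodels 0.14.6, pandas 2.3.3 and numpy 2.4.6).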

Additional observations from a re-analysis of the deposited data

How the results depend on the processing

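Without scaling between the arrays, the median log2 difference of the 10 genes was 0.13 in place of −0.36 and that of all genes 0.59 in place of 0.10, so the distance between them, −0.46, did not change. With all detected probes of a gene averaged, the median of the 10 was −0.54 and this distance −0.62, and it lay between −0.46 and −0.35 under the other alternatives. The number lower by 2-fold or more was 0 in the values given, 2 with scaling by the array median (*Cd14* and *Ticam2*), 1 (*Cd14*) with the 75th percentile over detected probes, with quantile normalization, with loess, with the deposited log2 values and with normexp, and 4 with the 1.5-fold limit. The number lower by 1.5-fold was 4 except 5 with the mean over probes and 0 without scaling. Without scaling 2 were higher by 1.5-fold, and so was the median of all genes. The number higher by 2-fold was 0 under every alternative. For normexp, 4 spots of the IR-61 array whose local background exceeded their signal took the array's median background, a step chosen after seeing the data. No paired analysis was possible because there was a single array of either kind, with none to leave out. What the signal limits is the dim probes, since the SD between spots rose from 0.07 above a log2 signal of 10 to 0.37 below 6 on the vehicle array. The causes of these shifts were not tested.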
